A study of Mus musculus with 12 samples.

Results

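The transcriptome of mouse embryonic stem (ES) cells was compared between day 5 after removal of doxycycline (Dox) and day 0 with Dox, over all genes. The 6 arrays used were the 3 of day 5 and the 3 of day 0, of 12 arrays in the series. The genes were those with at least 1 probe set that carries exactly 1 gene symbol, with such probe sets averaged per symbol. These were 19938 genes, from 21789 of 35557 probe sets. The cells were Esrrb_R, a rescue clone of the AINV15 line that carries the reverse tetracycline transactivator. In all groups of this clone the endogenous Esrrb is silenced by a short hairpin RNA, and a second copy that the hairpin does not target is expressed only while Dox is given. Day 0 cultures had 1 µg/ml Dox, and day 5 cultures had been without it for 5 days. All were in serum with Lif on gelatin without feeder cells, although stocks of the line grow on mouse embryonic fibroblasts. Esrrb_R is 1 clone, and no array holds cells kept with Dox for 5 days, so loss of Esrrb, removal of Dox and time in culture cannot be told apart.

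Esrrb is an orphan nuclear receptor of naive pluripotency, the state of the inner cell mass before implantation. It binds DNA as a monomer and activates genes such as Nr0b1, Tfcp2l1 and Klf4 together with Oct4, Sox2 and Nanog. When the naive network is lost, ES cells pass through a primed state like the epiblast after implantation and can then differentiate, and they change their adhesion, signaling, chromatin and metabolism as they do so.

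Esrrb itself, whose endogenous gene lies at chr12:86361117-86521628 (GRCm38.p6), had log2 signals of 11.59, 11.54 and 11.63 at day 0 and of 8.15, 8.28 and 8.13 at day 5. For this clone the paper reports undetectable endogenous Esrrb mRNA and expression of the exogenous copy with Dox. Which copy the array signal came from was not tested. The values are log2 signals from the Robust Multichip Average, on which a difference of 1 is a 2-fold change. No day 5 array came near the day 0 arrays, and the difference of -3.40 (standard error, SE, 0.07, limma adjusted p = 2.7e-11) was the largest fall of all. On this gene no array went against its label. All p-values here come from 1 limma model of the 12 arrays and are adjusted by Benjamini and Hochberg over the 19938 genes, and a gene is called higher or lower where the adjusted p is under 0.05.

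Of the 19938 genes tested, 3474 (17.4%) were higher and 3506 (17.6%) lower at day 5, so that 6980 (35.0%) differed. The median change over all genes was -0.02, with quartiles of -0.15 and 0.13. Most changes were small, with a median size of 0.37 among called genes beside a median standard error of 0.08. A rise of over 2-fold was called for 392 genes (1.97%) and a fall of over 2-fold for 286 (1.43%). All 3 day 5 arrays lay above all 3 day 0 arrays for 4120 genes (20.7%) and below them for 4408 (22.1%). With the genes cut by mean signal into 4 classes of equal size, 9.5% were called in the dimmest class and 54.7% in the brightest, where 1262 were higher and 1463 lower of 4985. The counts of the gene lists below are to be read beside these shares. Markers of ES cells were fixed as a check on the label of the cells. All 10 were brighter than the median gene at both days. Their mean signal per array went from between 12.05 and 12.09 at day 0 to between 11.04 and 11.14 at day 5, with 9 of 10 lower. One of the 9 is Esrrb (-3.40), which the design depletes, so its fall was fixed in advance and lowers the mean. The other lower markers changed by between -0.25 for Nanog and -1.60 for Zfp42, and Sall4 (0.12) was not called. Of 10 fibroblast markers none was higher and 1, Prrx1, was lower, with mean signals between 7.07 and 7.16 at day 0 and between 6.87 and 7.03 at day 5, beside a median of 7.33 over all genes. Of 6 markers each of blood and endothelium and of neurons 1 was higher and 1 lower. In such bulk RNA, fewer cells of a type and less RNA per cell cannot be told apart.

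The genes that rose most included the microRNA precursors of the cluster of miR-302 and miR-367. These small RNAs are made from 1 primary transcript, are known from pluripotent cells and the early epiblast, and repress messenger RNAs through the seed at bases 2 to 8. In RefSeq (GRCm38.p6) the 5 hairpins lie on the plus strand of chromosome 3, from Mir302b at chr3:127545228-127545301 to Mir367 at chr3:127545733-127545807, inside the span of the gene Larp7 (chr3:127536714-127553349). Mature strands are printed because the cluster holds 5 of the 6 largest rises. Capitals mark the seed, which miR-302b-3p and miR-302d-3p share.
mmu-miR-302b-3p: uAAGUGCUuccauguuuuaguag
mmu-miR-302d-3p: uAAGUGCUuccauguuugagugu
mmu-miR-302c-3p: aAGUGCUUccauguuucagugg
mmu-miR-367-3p: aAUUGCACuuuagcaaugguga
mmu-miR-302a-5p: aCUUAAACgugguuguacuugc
In miR-302c-3p, as RefSeq lists it, bases 2 to 8 are shifted by 1 against miR-302b-3p and miR-302d-3p, and miR-367-3p and miR-302a-5p have other seeds. The probe sets carry the symbols of the precursor genes, and mature strands were not measured.

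Mir302c had log2 signals of 5.38, 5.28 and 5.45 at day 0 and of 9.09, 8.52 and 9.24 at day 5. No array of either day overlapped the other day, which the rule for naming the largest changes requires. The rise of 3.58 (SE 0.19, limma adjusted p = 1.7e-08) was 11.97-fold and the largest of all genes. The other 4 precursors rose by between 3.35 for Mir302b and 3.52 for Mir367. Larp7, the gene whose span holds them, encodes a binding protein of the 7SK RNA. It is named here because of its position, after its values were seen. It rose by 0.21 (SE 0.06, limma adjusted p = 0.014) from a mean of 10.16 to 10.38. All 5 precursors were also higher at day 5 than at day 3, by between 1.30 for Mir302a and 1.43 for Mir367 (adjusted p at most 0.0019 from limma). Since they come from 1 transcript they are not 5 independent observations. Beside 17.4% higher and 17.6% lower of all genes, 20 of 296 microRNA genes tested were higher and 14 lower, with a median change of -0.01. The next largest rise among these was that of Mir363, at chrX:52741693-52741767, which belongs to the cluster of miR-106a and miR-363 and was named after its values were seen. It rose by 1.89 at day 5 and, unlike the 5 others, was lower at day 5 than at day 3 (-1.0, limma adjusted p = 7.8e-06).

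**Figure D1:**
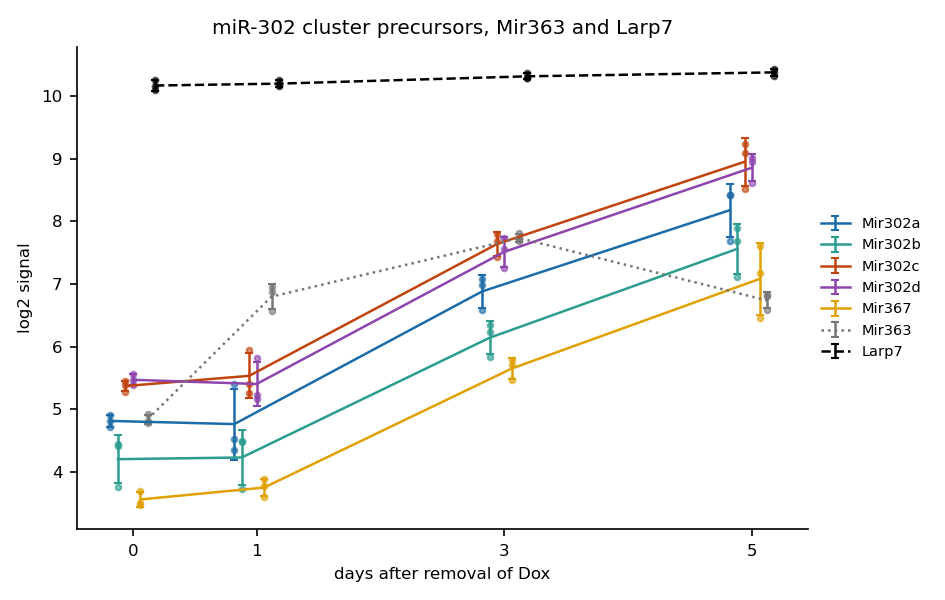
Log2 signal of the 5 miR-302 and miR-367 precursors, Mir363 and Larp7 on each array (points, shifted sideways for clarity) with lines through each day's mean and bars for the SD (n = 3), against days after removal of Dox. The 5 precursors stay near their day 0 level at day 1 and climb at days 3 and 5, Mir302c by 3.58 in all, Mir363 peaks at day 3, and Larp7 moves by 0.21.

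Besides the microRNA precursors, the largest rise was that of Ptger3. Ptger3, a receptor for prostaglandin E2, went from 6.58, 6.85 and 6.72 to 10.05, 10.40 and 10.41, a rise of 3.57 (SE 0.14). Fst, which encodes the activin antagonist follistatin, went from 8.19, 8.18 and 8.01 to 11.08, 11.24 and 11.23, a rise of 3.06 (SE 0.08). Both sets of day 5 arrays were well clear of day 0 and close to one another. Plat, the tissue plasminogen activator, rose by 2.93, and Thbd, the thrombin receptor thrombomodulin, by 2.86. Thbd had log2 signals of 7.70, 7.68 and 7.53 at day 0, a mean of 7.87 at day 3, and 10.20, 10.71 and 10.58 at day 5, so that nearly all of its rise lay after day 3 (2.63 between days 3 and 5, limma adjusted p = 1.2e-07). Fndc3c1, a fibronectin type III domain gene, had the opposite course. It went from 6.92, 7.14 and 6.50 at day 0 to a mean of 9.75 at day 3 and to 10.34, 9.80 and 10.25 at day 5, and the further change of 0.38 after day 3 did not pass the test (limma adjusted p = 0.092). Igfbp3, a carrier of insulin-like growth factors, rose by 2.60, Frzb, a secreted Wnt antagonist, by 2.67, the tyrosine kinase Ptk6 by 2.89, and Prtg, protogenin, a surface protein of the early neural tube and mesoderm, by 2.52. For each of the 20 largest rises named by the rule the adjusted p was at most 1.2e-06 from limma, and the 20th was 2.52 beside 2.51 for the next, Gbp3.

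Among the falls, Mep1b, a subunit of the protease meprin, went from 10.20, 10.22 and 10.12 at day 0 to 6.88, 7.18 and 6.57 at day 5, a change of -3.30 (SE 0.11). Jam2, a junctional adhesion molecule, went from 10.90, 10.95 and 10.86 to 8.01, 8.51 and 8.01, a change of -2.73 (SE 0.11). The rule for naming these genes requires that the groups of arrays do not overlap, and they were far apart in each gene. Lox, the lysyl oxidase that crosslinks collagen, fell by 2.50, Fbp2, a fructose bisphosphatase of gluconeogenesis, by 2.44, and the intracellular chloride channel protein Clic6 by 2.43. Several of these genes were already at their day 5 level at day 3. Lox had a mean of 6.17 at day 3 and values of 6.17, 5.92 and 6.22 at day 5, and its difference of -0.07 between these days did not pass the test (limma adjusted p = 0.72). Fbp2 differed by -0.05 between the same days (limma adjusted p = 0.74) and Khdc3, of the oocyte, by -0.00 (limma adjusted p = 1.0). The symbol Gm5662, a gene model that the rule on names leaves out, changed by -3.29 (limma adjusted p = 1.3e-06) with wide spread between arrays (SD 0.67 at day 0 and 0.50 at day 5). The gene A2m, which encodes alpha-2-macroglobulin and whose symbol the pattern for clone names caught by its form, is named here after its values were seen and changed by -2.19 (limma adjusted p = 2.0e-08).

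**Figure D2:**
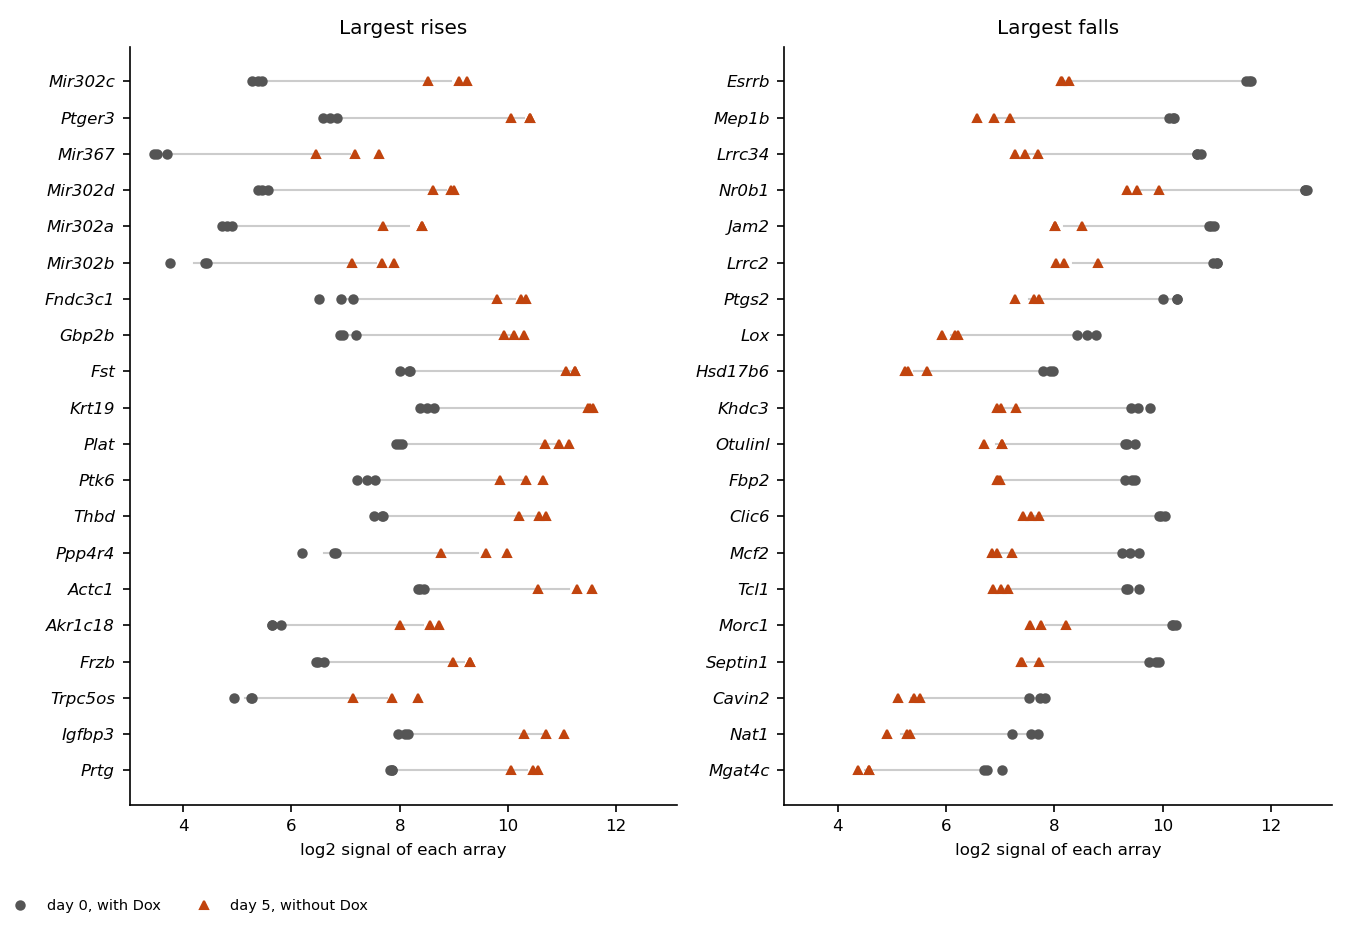
Log2 signal on each day 0 array (circles) and each day 5 array (triangles) for the 20 largest rises (left) and 20 largest falls (right), ordered by size; grey lines join the day means. The rule that chose these genes requires circles and triangles to be apart in every row. The changes go from a rise of 3.58 for Mir302c to -3.40 for Esrrb.

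Genes of prostaglandin synthesis and reception changed in both directions. Prostaglandins are lipid signals, made through the cyclooxygenases from a substrate that phospholipases free from membranes, and sensed by G protein coupled receptors. Ptgs2, the inducible cyclooxygenase, had log2 signals of 10.26, 10.26 and 10 at day 0 and of 7.71, 7.27 and 7.62 at day 5, a change of -2.64 (SE 0.15, limma adjusted p = 3.1e-08), which is a 6.25-fold fall. The phospholipase Pla2g4a, which frees the substrate, went from 8.0, 8.10 and 7.91 to 6.53, 6.55 and 6.32 (-1.53). Abcc4, an exporter of prostaglandins, changed by -1.44, and Pla2g1b, a secreted phospholipase, by -1.08. On the receiving side, Ptger3 and Ptger4 rose, the latter from 7.05, 6.95 and 7.12 to 7.59, 7.68 and 7.61 (0.59), and so did Slco2a1, which takes prostaglandins up for breakdown, from 8.71, 8.76 and 8.71 to 10.62, 11.10 and 11.19 (2.24). These 3 were all of the members that were higher. In all, 3 of 23 measured genes of the list were higher and 9 lower, beside 17.4% higher and 17.6% lower of all genes, with a median of -0.14 beside -0.02 over all genes. The receptors Ptger1 (0.11, adjusted p = 0.41) and Ptger2 (-0.23, adjusted p = 0.19) did not pass the test of limma.

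In the transforming growth factor family, transcripts of ligands, of their antagonists and of receptors changed, and signaling itself was not measured. Bmp ligands signal through type I and type II receptors to Smad1 and Smad5, while activin and Nodal signal to Smad2 and Smad3. Bmp2 went from 7.50, 7.50 and 7.27 to 8.98, 9.20 and 9.23, a rise of 1.71 (SE 0.10, limma adjusted p = 3.6e-08). The Bmp antagonist noggin (Nog) went from 7.43, 7.46 and 7.52 to 9.10, 9.31 and 9.63, a rise of 1.88 (SE 0.10). Ligand and antagonist were thus both higher on every day 5 array. The receptors Acvr1 (1.29) and Bmpr2 (0.89) and the ligands Bmp7 (0.89) and Bmp8b (1.10) also rose. Of 26 Bmp genes 18 were higher and 3 lower, with a median of 0.41, and between days 3 and 5, where 13.0% of all genes were higher and 12.2% lower, 15 were higher and 1 lower. Grem1, the antagonist gremlin, was lower (-0.76), and Bmp4 dipped at day 3 and returned. It stood at 9.39, 9.55 and 9.33 at day 0, at a mean of 7.49 at day 3 and at 9.27, 9.04 and 9.09 at day 5, so that it was 1.64 higher than at day 3 and -0.29 from day 0 (limma adjusted p = 0.014). That last call was lost without day 0 replicate 2 (adjusted p = 0.062), day 5 replicate 2 (0.055) or day 5 replicate 3 (0.050), and without day 5 replicate 2 only Grem1 of the Bmp list was lower, since the third gene, Smad6 (-0.19, limma adjusted p = 0.043), also lost its call there (0.13), as it did under 12 other alternatives.

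In the list of Nodal, activin and Tgfb genes, 13 of 31 were higher and 7 lower (median 0.09). Inhba, which encodes the subunit of activin A, went from 8.64, 8.49 and 8.24 to 7.08, 6.96 and 6.99 (-1.45), whereas its antagonist Fst rose by 3.06. The ligand Tgfb2 went from 6.67, 6.39 and 6.71 at day 0 to a mean of 6.56 at day 3 and to 8.09, 7.95 and 8.18 at day 5 (1.48, SE 0.09, limma adjusted p = 6.3e-08). It was 1.52 higher at day 5 than at day 3 (limma adjusted p = 3e-07). The coreceptor Tgfbr3 also rose by 1.48, while Pcsk6, the convertase that activates Nodal, changed by -1.58, Gdf3, a Nodal-related ligand, by -0.93, and the inhibitory Smad7 by -0.88.

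Genes of the Fgf and Erk pathway went both ways, 13 higher and 12 lower of 33 (median 0.08). Fgfr2, the receptor, had signals of 10.04, 9.86 and 9.95 at day 0 and of 8.43, 8.48 and 8.53 at day 5 (-1.47, SE 0.06, limma adjusted p = 3.5e-09), with a mean of 8.47 at day 3 already. The feedback inhibitor Spry4 (-1.21) and the Ets factor Etv4 (-1.17), both induced by Fgf signals, were lower as well. Dusp14, a phosphatase of the dual specificity family, rose by 1.35. For Lif and Stat3, the pathway that the culture medium engages, 7 of 20 were higher and 1, Bcl3, was lower (-0.51; median 0.09). The kinase Pim2 went from 9.15, 9.34 and 9.11 to 11.13, 10.91 and 11.08 (1.84), although it was lower at day 5 than at day 3 (-0.55), and Jak2, the kinase next to the receptor, rose by 1.02 from 8.68, 8.75 and 8.65 to 9.69, 9.67 and 9.78. The transcript of Lif itself rose by 0.82.

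**Figure D3:**
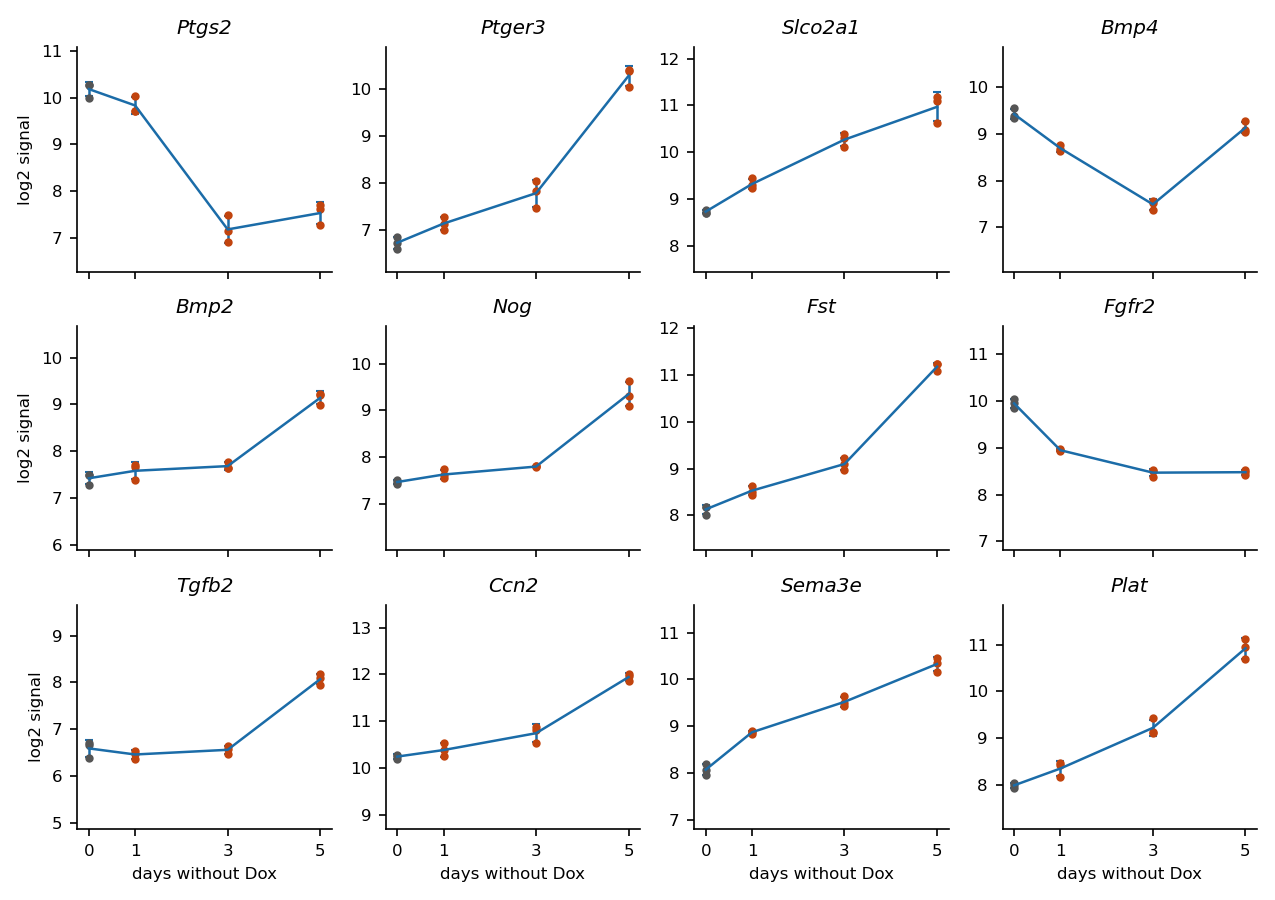
Log2 signal of 12 signaling and secreted genes on each array (points, grey for day 0 with Dox) with a line through the means and bars for the SD (n = 3), against days without Dox, all panels being drawn to 1 vertical scale per log2 unit. Ptgs2 (-2.64) and Fgfr2 (-1.47) are low from day 3 on, Bmp4 dips at day 3 and returns, and Bmp2 (1.71), Nog (1.88) and Tgfb2 (1.48) rise between days 3 and 5.

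Wnt components were higher more often than lower, 20 against 6 of 44 (median 0.11). Wls, which carries Wnt proteins to the surface, went from 8.37, 8.29 and 8.17 to 10.11, 9.28 and 9.81 (1.46), and the receptor Fzd2 from 7.81, 7.82 and 7.86 to 9.58, 8.90 and 9.49 (1.49). The secreted antagonists moved apart, Frzb up by 2.67 and Sfrp1 (-0.84) and Sfrp4 (-0.62) lower. Of 20 Wnt targets and Tcf factors 8 were higher and 3 lower. Among the factors, Tcf7l2 rose by 1.59 and Tcf7l1, the repressor of naive genes, by 0.54, and Lef1 was lower (-0.44). In the Hedgehog pathway the transducer Smo (1.16) and the factor Gli3 (1.43) rose, whereas Gli1 (-0.52) and the receptor Ptch1 (-0.48), both induced by the pathway, and Gli2 (-0.46) were lower, so that 6 of 14 were higher and 3 lower. In the Notch pathway 9 of 24 were higher, among them Notch3 (0.93) and Notch2 (0.70), and 1 was lower, Rbpj, the DNA-binding partner of the Notch receptors (-1.28). Of the Notch list 41.7% were called, beside 35.0% of all genes.

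The Hippo pathway restrains the coactivators Yap1 and Wwtr1, which act through the Tead factors and respond to cell shape and contact. Of 24 measured genes 17 were higher and 1, the upstream Nf2 (-0.27), was lower, with a median of 0.43. Without day 0 replicate 3, 2 members were lower, since Mob1b then passed (-0.20, limma adjusted p = 0.028). The secreted targets Ccn2 and Ccn1 rose by 1.71 and 1.30: Ccn2 went from 10.27, 10.18 and 10.26 to 11.85, 12.01 and 11.97, and Ccn1 from 10.60, 10.51 and 10.53 to 11.86, 11.80 and 11.86. The spread within each day was small beside the difference. Tead2 rose by 1.07, Tead1 by 0.48, Yap1 by 0.38 and Wwtr1 by 0.26, as did the inhibitors Amotl1 (1.19), Amotl2 (0.94), Vgll4 (0.80) and Lats2 (0.75). Tead4 (-0.12, limma adjusted p = 0.19) did not pass the test. Between days 3 and 5, 15 members were higher and none was lower.

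Contractile genes gave the largest median shift upward of the 56 lists, 0.73, with 25 of 33 higher and 2 lower, Actg2 (-0.53) and Fhl1 (-0.39). Actc1, cardiac actin, went from 8.37, 8.34 and 8.45 to 11.55, 10.56 and 11.27 (2.74, SE 0.18), and Acta1, skeletal muscle actin, from 8.17, 8.28 and 8.20 to 10.66, 10.19 and 10.48 (2.22, SE 0.11). Day 5 replicate 2 was the lowest of the 3 for both genes and still far above day 0. The calponin Cnn1 rose by 1.70, Tagln (SM22) by 1.67 and Tagln2 by 1.08, whereas beta actin (Actb) was 0.08 from day 0 (limma adjusted p = 0.22). Srf, the factor that controls many of these genes, rose by 0.55. The fibroblast markers given above were not higher than at day 0, but between days 3 and 5, when 25 contractile genes were higher and 0 lower, their mean signal per array also went up, from between 6.64 and 6.66 to between 6.87 and 7.03. Of these markers Col1a2 (1.24), Col1a1 (0.96), Postn (0.62), Dcn (0.43) and Col3a1 (0.39) were higher at day 5 than at day 3 and Thy1 (-0.65) lower (limma adjusted p at most 0.016), and their part in the contractile result was not tested. Actc1, Acta1 and vinculin (Vcl, 1.13) are given with their promoters, from RefSeq (GRCm38.p6), since each holds the CArG box to which Srf binds (CC and GG around 6 bases of A or T). Capitals mark the box, which begins at position -47 from the start site in Actc1, -73 in Acta1 and -227 in Vcl.
Actc1, chr2:114052826-114053125, minus strand: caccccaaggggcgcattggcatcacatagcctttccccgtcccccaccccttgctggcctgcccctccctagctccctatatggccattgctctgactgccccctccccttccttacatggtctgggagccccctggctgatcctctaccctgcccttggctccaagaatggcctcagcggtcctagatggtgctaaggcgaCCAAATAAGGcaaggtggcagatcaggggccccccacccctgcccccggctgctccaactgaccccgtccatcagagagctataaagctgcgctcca
Acta1, chr8:123894726-123895025, minus strand: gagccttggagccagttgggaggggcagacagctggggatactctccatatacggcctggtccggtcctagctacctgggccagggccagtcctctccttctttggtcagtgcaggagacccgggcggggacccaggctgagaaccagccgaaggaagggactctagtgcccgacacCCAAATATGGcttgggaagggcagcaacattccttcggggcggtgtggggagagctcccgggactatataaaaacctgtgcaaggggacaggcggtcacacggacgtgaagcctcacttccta
Vcl, chr14:20929148-20929447, plus strand: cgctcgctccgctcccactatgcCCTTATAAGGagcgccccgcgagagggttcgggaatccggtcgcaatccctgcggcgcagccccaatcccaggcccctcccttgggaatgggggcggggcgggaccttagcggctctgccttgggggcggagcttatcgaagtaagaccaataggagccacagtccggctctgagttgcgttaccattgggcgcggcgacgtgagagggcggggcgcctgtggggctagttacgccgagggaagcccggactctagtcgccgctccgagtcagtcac
The box is palindromic in form and was searched on both strands, in windows of 300 bases from 250 before the start site to 50 after it. Of the 30 contractile genes with such a promoter in RefSeq 10 (33.3%) held it, of which 8 were higher and 1, Fhl1, was lower. Of all 15614 genes tested with a promoter 1.63% held it. The list is made up in part of known Srf targets, so the share describes the list and not day 5.

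Over the genes changed by more than 2-fold, the same windows were searched for this box and for the elements of Esrrb and of the Tead factors. A CArG box was present for 6 of 301 higher genes with a promoter (1.99%) and for 3 of 224 lower genes (1.34%). The Esrrb response element TCAAGGTCA was present in none of the 301 and none of the 224, and in 0.35% of all. Its core AAGGTCA, which the longer element contains, was present in 1.66% of the higher, 4.91% of the lower and 4.48% of all. The Tead element CATTCCA was present in 6.98% of the higher, 8.04% of the lower and 4.25% of all, but in 4.46% and 4.09% of the genes called higher and lower at any fold. Each was searched on both strands. A match is a run of letters and not a bound site, and distant enhancers were not searched. A gene could have several promoters, on average 1.34 for the higher, 1.28 for the lower and 1.23 for all genes, so that more windows were searched per changed gene.

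Genes of cell contact rose in the main. Of 31 cadherin, claudin and tight junction genes 20 were higher and 3 lower (median 0.33). Cldn7, a claudin of epithelia, went from 7.84, 7.83 and 7.87 to 9.78, 9.55 and 9.73 (1.84), and cingulin (Cgn), a protein of the tight junction plaque, from 8.41, 8.39 and 8.34 to 10.01, 9.73 and 9.77 (1.46). Those lower were Jam2, Jam3 (-1.15) and the mesenchymal cadherin Cdh11 (-1.23). In the list of desmosome and keratin genes 14 of 23 were higher and 1, Krt42, was lower (-0.70). Desmoplakin (Dsp), which anchors keratins to desmosomes, rose by 2.10 and the desmosomal cadherin Dsc2 by 1.22. Without day 0 replicate 1, 2 members of that list were lower, since Dsg3 then passed (-0.21, limma adjusted p = 0.032). Regulators of the epithelial and mesenchymal states were split, 8 higher and 6 lower of 20. The splicing factor of epithelia Esrp1 went from 8.83, 8.83 and 8.71 to 10.34, 10.19 and 10.38 (1.51), the repressor Snai1 rose by 1.27 and Zeb2 by 0.97, and Snai2 (-0.76) and Zeb1 (-0.78) were lower.

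In the matrix, 19 of 36 genes of the basement membrane and collagens were higher and 7 lower (median 0.17). Nidogen (Nid1), which joins laminin to collagen IV, went from 10.38, 10.33 and 10.38 to 11.40, 11.88 and 11.99 (1.39). The genes that were lower included Lox, its relative Loxl3 (-1.30), fibulin 2 (Fbln2, -1.58) and Col5a2 (-0.92). Of 30 integrin and matricellular genes 18 were higher and 5 lower (median 0.34), with Itgb8, which activates latent Tgf beta, at 1.41, Itga8 at 1.23, Itga3 at 1.11 and the matrix protein tenascin C (Tnc) at -1.36. Of 31 proteases and inhibitors 15 were higher and 11 lower. Besides Plat the inhibitor Timp2 (1.49) and the matrix protease Adamts9 (1.32) rose, and the surface protein Adam23 (-1.03) fell. Of 22 annexin, calpain and S100 genes 12 were higher and 3 lower. Anxa3, a membrane binding protein, went from 9.38, 9.34 and 9.39 to 11.12, 10.71 and 10.87 (1.53), and Anxa2 rose by 1.19.

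Guidance genes, named for their part in steering axons and migrating cells, had a median of 0.49, with 23 of 39 higher and 6 lower. Sema3e went from 8.20, 8.06 and 7.96 to 10.46, 10.16 and 10.36 (2.25, SE 0.09, limma adjusted p = 1.9e-09), and the Slit receptor Robo2 from 6.36, 6.38 and 6.36 to 8.40, 8.55 and 8.57 (2.15, SE 0.07, limma adjusted p = 3.1e-10). In both the arrays of a day lay close together and the days far apart. The transmembrane Sema6d (2.14) and Sema6a (1.74), the receptor Epha1 (1.78) and its class of ligand Efna5 (1.59) rose too. Netrin 1 (Ntn1, -1.17), Epha4 (-0.90), Sema3a (-0.66) and the semaphorin receptor Nrp1 (-0.65) were lower, and each of the last 3 was higher at day 5 than at day 3.

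Genes of the germline and oocyte, many of which are transcribed in ES cells, were lower in 22 of 30 cases and higher in none, with a median of -0.73. At an unadjusted p under 0.05 from limma, 23 were lower and 1 higher. Khdc3, a member of the maternal complex below the oocyte membrane, had signals of 9.41, 9.77 and 9.55 at day 0 and of 7.01, 7.29 and 6.95 at day 5 (-2.49, SE 0.10, limma adjusted p = 2.6e-09). Its partners Ooep (-1.77) and Tle6 (-0.51) were lower too, whereas Nlrp5 (-0.23, limma adjusted p = 0.40) and Padi6 (-0.02, limma adjusted p = 0.89) did not pass the test. Of meiotic and germ cell genes, Lrrc34 went from 10.64, 10.71 and 10.63 to 7.28, 7.70 and 7.46 (-3.18), Hormad1, of the chromosome axis, changed by -1.47, Mael, of the piRNA pathway, by -1.24, the RNA binding Dazl by -1.13 and the helicase Ddx4 by -0.97. Mael stood at 7.92, 8.07 and 7.98 at day 0, at a mean of 8.03 at day 3 and at 6.54, 6.94 and 6.77 at day 5, so that it fell by 1.28 after day 3 (limma adjusted p = 9.4e-07). Tfap2c was higher without day 0 replicate 2 (0.24, limma adjusted p = 0.044) or day 5 replicate 3 (0.26, adjusted p = 0.027), so that 1 member was then higher.

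The DNA methylation list included 5 genes that fell by over 2-fold. Tet2, which oxidizes 5-methylcytosine, went from 9.71, 9.61 and 9.51 to 7.79, 8.17 and 7.86 (-1.67, SE 0.10), and Tet1 from 11.92, 11.73 and 11.73 to 10.18, 10.62 and 10.39 (-1.40, SE 0.10). Zfp57, which protects imprints from loss of methylation, changed from 12.33, 12.31 and 12.16 to 10.75, 11 and 10.70 (-1.45). The others were the de novo methyltransferase Dnmt3a (-1.70) and its cofactor Dnmt3l (-1.05), so that genes of making and of removing methylation were both among them. In all 7 of 18 were lower and 4 higher, of which Uhrf2 (0.68) changed most. Without day 0 replicate 1, day 5 replicate 2 or day 5 replicate 3, 2 were higher, Uhrf2 and Tet3 (0.24), since Dnmt1 and Mbd2 then lost their calls (limma adjusted p of 0.054 to 0.095). Of 22 imprinted genes 11 were higher, and 2 lower, with Sgce (1.63), Peg3 (1.56), Igf2 (1.53) and Peg10 (1.45) over 2-fold. Sgce and Peg10 are neighbors in 1 imprinted domain. The count of lower genes was 1 without day 0 replicate 1, day 5 replicate 1 or day 5 replicate 3, since Rian then lost its call (limma adjusted p of 0.11 to 0.12). Among other chromatin genes, Setd7, a lysine methyltransferase, rose by 1.47 from 7.64, 7.98 and 7.64 to 9.31, 9.09 and 9.27, while of 30 Polycomb genes 9 were higher and 9 lower with none past 2-fold, the Prc2 partners Mtf2 (-0.83) and Phf19 (-0.76) being lowest. Without day 5 replicate 3, 4 Polycomb genes lost their calls and 5 were higher.

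Small shifts in 1 direction were seen in genes of the mitochondrion and of ribosome assembly. Of 51 subunits of the respiratory chain 32 were lower and none higher (median -0.23). Of 53 mitochondrial ribosomal proteins 29 were lower and none higher (median -0.19), of 23 genes of the citric acid cycle 13 were lower and none higher (median -0.22), and of 49 factors of cytoplasmic ribosome assembly 38 were lower and none higher (median -0.23). None of these genes changed by 2-fold. At an unadjusted p under 0.05 from limma the 4 lists had 35, 31, 14 and 42 lower and 0 higher, beside 8498 of all genes in either direction. Atp5g1, a subunit of the ATP synthase ring, went from 10.38, 10.39 and 10.47 to 9.83, 9.75 and 9.65 (-0.67), and Nop10, of the box H/ACA particles, from 11.90, 11.98 and 11.93 to 11.35, 11.12 and 11.24 (-0.70). Both were lower on every day 5 array. The cytosolic Idh1, counted with the cycle, changed by -0.79 and the succinate ligase subunit Sucla2 by -0.68. The members are bright, with median signals between 9.74 and 11.07, in the range where 54.7% of genes were called. These directions stood when the arrays were centred on their medians or normalized again, but without day 5 replicate 2 Pck2 of the citric acid list was higher (0.21, limma adjusted p = 0.044).

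Chaperones and folding enzymes of the endoplasmic reticulum moved the other way, 17 of 22 higher and none lower (median 0.31), with 17 and 0 at an unadjusted p under 0.05 from limma and 16 higher and none lower between days 3 and 5. Sel1l, of the degradation complex, went from 10.13, 10.21 and 10.05 to 10.68, 10.85 and 10.80 (0.65), and Hyou1, a chaperone of the Hsp70 family, from 11.05, 11.10 and 11.07 to 11.60, 11.64 and 11.75 (0.60). Without day 5 replicate 2, Atf6 was lower (-0.20, limma adjusted p = 0.046). Heat shock proteins of the cytosol showed no such shift, 4 higher and 5 lower of 17, with Hspb1 at -1.07 and Hspb8 at 0.90.

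**Figure D4:**
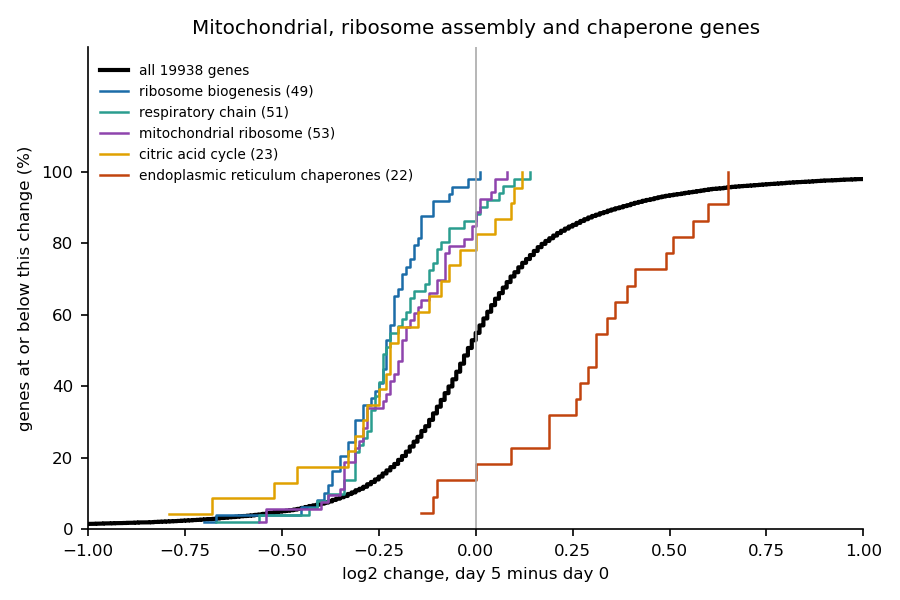
Cumulative share of genes against the log2 change at day 5, for all 19938 genes (black, cut at the axis limits) and for 5 lists with the number measured in brackets. The curves of ribosome biogenesis (median -0.23), respiratory chain (-0.23), citric acid cycle (-0.22) and mitochondrial ribosome genes (-0.19) lie left of all genes (-0.02), and that of endoplasmic reticulum chaperones (0.31) lies right.

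In glycolysis and the hypoxia response 15 of 32 were higher and 6 lower (median 0.13). Pfkfb3, which makes the activator of phosphofructokinase, went from 8.17, 8.07 and 7.91 to 9.51, 9.61 and 9.58 (1.52), and the oxygen sensors Egln3 (1.52) and Egln1 (1.42) and the glucose transporter Slc2a1 (0.91) rose. The lactate dehydrogenase Ldhb (-1.22) and the platelet phosphofructokinase Pfkp (-1.13) were lower. Amino acid transporters and stress genes were lower in 14 of 37 cases and higher in 6, with the cationic transporter Slc7a3 at -0.72 and the neutral transporter Slc1a5 at -0.70, against 0.79 for Slc38a1. Among interferon-inducible genes 13 of 30 were higher and 6 lower. The guanylate binding proteins Gbp2b and Gbp3, which lie in 1 cluster of such genes on chromosome 3, rose by 3.10 and 2.51: Gbp2b went from 6.95, 7.19 and 6.89 to 10.29, 9.92 and 10.12, and Gbp3 from 6.40, 6.34 and 6.42 to 9.01, 8.73 and 8.96. As close paralogs they may share probes. The antigen presentation factor Tapbp rose by 1.32, whereas Ifitm2 (-0.71), Psmb9 (-0.62) and Irf9 (-0.43) were lower.

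Cell cycle genes were called about as often as all genes (35.0%), and none was called past 2-fold. They are bright, with median signals of 10.2 for G1 and S phase and 10.96 for G2 and mitosis. Genes of the brightest class were called more often (54.7%). Of 36 genes of G1 and S phase 10 were higher and 5 lower (41.7% called). Cdk6 was at 0.92 and Rbl2, a relative of the retinoblastoma protein, at -0.72. Of 29 genes of G2 and mitosis 3 were higher and 7 lower (34.5% called), none beyond -0.40 for Bub1b. Targets of p53 were higher in 10 and lower in 4 of 23 cases (60.9% called). Cdkn1a and Bax of that list were not matched to a gene tested. The desmosomal Perp, counted with the p53 targets, went from 8.01, 8.06 and 7.97 to 9.67, 9.45 and 9.50 (1.53). Clock genes were mostly within small changes, apart from the repressor Bhlhe40, which went from 7.63, 7.86 and 7.75 to 9.60, 9.54 and 9.63 (1.84). Of 11 genes often used as references 5 were lower and 1, Gusb, was higher, a call that was lost without day 0 replicate 1 (limma adjusted p = 0.057) or day 5 replicate 3 (limma adjusted p = 0.06). Hprt, a gene of purine salvage, went from 9.38, 9.52 and 9.34 to 8.43, 8.35 and 8.35, a change of -1.04 (SE 0.06, limma adjusted p = 2.9e-08).

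Nuclear receptors other than Esrrb moved both ways, 10 of 44 higher and 8 lower with Esrrb counted (40.9% called, beside 35.0% of all genes). Nr5a2 (Lrh1), which binds elements like those of Esrrb, went from 8.78, 8.94 and 8.63 to 7.41, 7.53 and 7.40 (-1.34), and Nr6a1 (Gcnf), a repressor of Oct4, from 9.13, 9.09 and 9.10 to 10.61, 10.45 and 10.60 (1.45). Neither pair of groups overlapped. In the naive list 16 of 18 genes were lower, 1 of them Esrrb, whose fall the design fixed. The 1 higher member, Dppa3 (0.31), lost its call under 3 alternatives. Tfcp2l1 was lower on all day 5 arrays, at 8.53, 8.56 and 8.34 against 10.20, 10.22 and 10.24 at day 0 (-1.74). It was yet higher at day 5 than at day 3 (0.56, limma adjusted p = 0.0018).

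Among the lists of lineage genes, those of mesoderm and neuroectoderm had calls in both directions and those of the streak and trophectoderm mostly upward. In the list of primitive and visceral endoderm 12 of 22 were higher and 4 lower. Cubilin (Cubn) and amnionless (Amn), which together form the uptake receptor of that epithelium, were lower, Cubn at 12.39, 12.32 and 12.34 against 10.72, 11.27 and 11.06 at day 5 (-1.33) and Amn at -1.30. The basement membrane genes Col4a1 (1.25) and Lamc1 (1.06) and the factor Sox7 (0.84) rose. Of 22 neuroectoderm genes 3 were higher and 4 lower (31.8% called, beside 35.0% of all genes). The intermediate filament nestin (Nes) went from 7.08, 6.82 and 7.02 to 9.23, 8.64 and 9.33 (2.10), and the neuronal factor Neurod1 from 8.88, 9.12 and 8.66 to 6.33, 7.16 and 6.48 (-2.23). Of 21 mesoderm genes 4 were higher and 5 lower (42.9% called), with Mef2c (0.83) and Msx2 (0.72) up and Meox1 (-0.54) and Foxc2 (-0.46) down. In the streak list 8 of 17 were higher and none lower, with 8 and 0 at an unadjusted p under 0.05 from limma. Sox17 (0.80), Wnt3 (0.79), Sp5 (0.75) and Foxa2 (0.73) led it, and Mesp2 was lower without day 5 replicate 2 (-0.29, limma adjusted p = 0.014). Fgf8 (0.40), 1 of those higher, lost its call under 6 alternatives, and the streak gene T was not matched to a gene tested. In the trophectoderm list 10 of 20 were higher and 1, Fgfr2, was lower. Its largest rises were Krt19 (3.03), Krt18 (2.50), Krt7 (1.79), Krt8 (1.69) and Igf2 (1.53). These keratins are also counted in the keratin list and Igf2 with the imprinted genes. Of 18 primed epiblast genes 11 were higher and 4 lower. The largest rise was that of Krt18 (2.50), which is counted in the trophectoderm and keratin lists too. The carbonic anhydrase Car12 (2.17) and the ligand Fgf5 (1.87) came next. The 4 lower were Dnmt3a (-1.70), Fgf15 (-0.75), Otx2 (-0.48) and Lef1 (-0.44). Between days 3 and 5, 3 members of this list were higher and 6 lower, beside 13.0% higher and 12.2% lower of all genes.

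Further lists held regulators of RNA and chromatin and genes of lipids, lysosomes and cell death. Of the let-7 regulators and their partners 6 of 15 were higher and none lower, with 7 and 1 at an unadjusted p under 0.05 from limma. Lin28b, which blocks the maturation of let-7, went from 8.34, 8.17 and 8.10 to 9.07, 8.93 and 8.99 (0.80), and the RNA binding Igf2bp3 rose by 0.85. Without day 0 replicate 3, Hmga2 of this list was lower (-0.23, limma adjusted p = 0.025), and 1 member was also lower without day 3 replicate 1. Of 32 chromatin remodelers 8 were higher, with Chd7 at 0.89, and 6 lower, with the Baf subunit Smarcd3 at -0.87. Of these remodelers 43.8% were called, beside 35.0% of all genes. In the brightest class, where their median signal of 10.22 lies, 54.7% of genes were called. Of 27 genes of sterol and fatty acid synthesis 10 were higher and 2 lower, or 1 without day 5 replicate 3, since Pmvk then lost its call (limma adjusted p = 0.076). Insig1, the sterol-induced brake on this pathway, went from 10.72, 10.83 and 10.75 to 11.72, 12.01 and 11.85 (1.09), and the desaturase Scd2 rose by 0.86, while the elongase Elovl6 was lower (-0.70). Lysosomal and autophagy genes were higher in 15 and lower in 7 of 33 cases, the lipase Lipa at 0.83 and the mannosidase Manba at -0.98. In the Bcl2 family 6 of 16 were higher and 4 lower. The death-promoting Bcl2l11 (Bim) rose by 0.71 and Pmaip1 (Noxa) by 0.49, and so did the protective Bcl2 itself by 0.57, whereas Bid (-0.52) and Bmf (-0.52), both death-promoting, were lower. The gap junction gene Gjb5 went from 9.82, 9.79 and 9.91 to 8.34, 8.79 and 8.51 (-1.30).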

How the data were processed

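RNA of Esrrb_R cells was hybridized to Affymetrix Mouse Gene 1.0 ST arrays, with 3 biological replicates at each of days 0, 1, 3 and 5. The deposited values are log2 signals, which the authors computed in Expression Console (version not stated) by the Robust Multichip Average. Of 35557 probe sets, 21789 carried 1 gene symbol, 1621 several and 12147 none in the platform annotation. Probe sets of 1 symbol were averaged, and 999 genes had more than 1.

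All 12 arrays were fitted with limma 3.58.1 in R 4.3.3, with a mean per day and moderated variances, and Benjamini-Hochberg adjustment covered 19938 genes. No array stood apart: medians were between 7.275 and 7.347, and replicates of a day correlated at 0.9964 or more. The precision is limited by the 3 arrays per day, and 3 against 3 cannot go below 0.1 in a permutation test. The alternatives were other sets of arrays, variances, weights, scalings, probe set rules and thresholds.

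Genes named were Esrrb, the 20 largest called changes in each direction with all arrays apart (gene models and clone names left out), and in each of 56 lists up to 6 called members by size and up to 4 of the opposite direction, beside the genes that the study names for these arrays. Of genes outside this rule, Ddx4, Lats2, Srf, Tagln2, Tead1, Tle6, Vcl, Wwtr1 and Yap1 were named as list members after their values were seen. The others are said to be so in the text, did not pass, were not matched to a gene tested, or are named for a call that 1 array decides. The comparison, members and lists were chosen with earlier results of these data known. Mature and promoter sequences, and positions, came from RefSeq (GRCm38.p6).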

Additional observations from a re-analysis of the deposited data

Results flagged for a closer look

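In 10 named genes the change turned after day 3 and carried them past their day 0 level to the other side, with the differences between days 0 and 3, days 3 and 5 and days 0 and 5 all passing the test of limma. Since both differences use the day 3 arrays, an error on day 3 moves them apart, and no test of its own was made of the turn. Of the genes that first rose and then fell, the Fgf ligand Fgf15 changed by 0.87 and then by -1.62, which left it at -0.75 from day 0. The homeobox gene Otx2 changed by 0.63 and then by -1.12, Sfrp4 by 0.37 and then by -0.99, and Ptch1 by 0.50 and then by -0.98. All 4 were lower at day 5 than at day 0.

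Of the genes that first fell and then rose, the annexin Anxa5 changed by -0.43 and then by 1.16, the calpain Capn2 by -0.17 and then by 0.91, the kinase Plk2 by -0.40 and then by 1.02, the stress factor Atf3 by -0.32 and then by 0.83, and the cyclin Ccnd2 by -0.55 and then by 0.96. The methyl-CpG binding protein Mbd2 changed by -0.44 and then by 0.61, and its remaining difference of 0.17 from day 0 lost its call under 5 alternatives, without day 0 replicates 1 or 3 and day 5 replicates 2 or 3 among them (limma adjusted p of 0.054 to 0.095).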

How the results depend on the processing

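The 3474 genes higher at day 5 than at day 0 and 3506 genes lower at day 5 than at day 0 became 2963 and 2836 with the arrays of days 0 and 5 alone, and ranged from 3044 to 3421 and from 2949 to 3445 when each array was left out in turn. With a threshold of 2-fold these ranges were 378 to 419 and 272 to 308, against 392 and 286. With each probe set tested for itself, 455 counted among the genes lower by over 2-fold at day 5. The share of promoters with CATTCCA went from 6.98% and 8.04% at 2-fold to 4.46% and 4.09% among genes called at any fold. Between days 3 and 5 the counts ranged from 2094 to 2659 higher and from 1870 to 2542 lower. Centring and quantile normalization moved the median change of all genes by -0.014 and 0.006. Of the 394 named genes other than Esrrb 19 changed their call under at least 1 of 20 alternatives and 0 reversed, and of 112 list counts 24 moved by over 1.5 times under at least 1. The value of Esrrb at day 5 against day 0 stayed between -3.45 and -3.37. The replicate numbers did not pair the samples, as arrays of one number deviated together by correlations of -0.17 to 0.07, and with the replicate number as a block 3332 genes were higher and 3331 lower. Dim genes limit what could be seen: 9.5% of the dimmest class of genes were called.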

Other observations

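The 3 day 5 arrays differed in how far they had moved in the genes that changed most. Of the 20 largest rises, day 5 replicate 2 was the array nearest to day 0 for 13, replicate 1 for 7 and replicate 3 for 0. Of the 19 largest falls other than Esrrb, replicate 2 was nearest for 13, replicate 1 for 2 and replicate 3 for 4. Genes that move together give such counts together, and no test was made.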
